A study of Mus musculus with 3 samples.

Results

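The promoters of the heme biosynthesis enzymes were examined as 7 of the 7197 viewpoints of a Capture-C experiment in mouse erythroid cells. A viewpoint is a DpnII restriction fragment at a promoter that was enriched with biotinylated probes. Every viewpoint was taken whose name contained, as a part of its own, Alas2, Alad, Uros, Urod, Cpox, Ppox or Fech. These were Alad_a, Alad_b, Uros, Uros_Bccip, Urod, Cpox and Ppox, which stand for 5 of the 7 genes. No viewpoint carried the name of Alas2 or Fech, so these genes were not analysed here.

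All 3 libraries belonged to 1 group and no control group was included. They were made from CD71+ ter119+ erythroid cells, selected with antibody to ter119 from spleens of phenylhydrazine-treated mice, F1 offspring of a cross of C57BL/6 with CBA/J, that were killed on day 5. Phenylhydrazine destroys red cells and makes the spleen fill with erythroid precursors. The assay holds no RNA or protein measurement with which the cell type could be checked, and the globin viewpoints are described with the last results. The columns of values were unnamed, and the letters a, b and c stand for the libraries in column order. They held 18230099, 34428035 and 34233560 cis events, where an event is a unique ligation between a viewpoint and another fragment of its chromosome. Libraries b and c were closest to each other, with a chi-square per degree of freedom of 1.02 over all viewpoints against 1.20 for either with library a, but they too differed beyond sampling noise (chi-square test, p = 4.48e-08). On the heme viewpoints alone the chi-square p was 0.347 for b and c, 0.0932 for a and b and 0.0298 for a and c. Of single heme viewpoints, Urod had a chi-square p of 0.00652 between libraries a and c and of 0.0259 between b and c. The other 6 had a chi-square p of at least 0.0643 in each pair. These p-values were not adjusted for the number of viewpoints and pairs tested. Each library was counted as 1 sample, so that each mean ± SD has n = 3. Nothing in the labels says whether the libraries came from separate animals, so spreads and chi-square p-values measure differences between libraries, which may be technical. The negative binomial p-values given below compare counts summed over the libraries with the spread among all viewpoints at like distances.

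Heme is built in a chain of enzymatic steps that begins and ends in mitochondria and passes through the cytosol, and erythroid cells make most of the heme of the body for hemoglobin. Alad joins molecules of aminolevulinic acid, the product of the Alas enzymes, into porphobilinogen. Uros closes a linear tetrapyrrole into the ring uroporphyrinogen, and Urod removes carboxyl groups from the side chains. Cpox changes side chains of the ring by oxidation, and Ppox then oxidises the ring to protoporphyrin, into which Fech inserts iron.

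The viewpoint fragments and the promoters in them are placed in mm9. Alad lies on the minus strand of chromosome 4, with Alad_a at chr4:62180626-62181061 and Alad_b at chr4:62181083-62181523. Each of these held 1 of the annotated starts of Alad, at 62180943 in Alad_a and at 62181097 in Alad_b. Urod lies on the same chromosome and strand, with its viewpoint at chr4:116666890-116667074 around the start at 116667018. The gene Uros lies on the minus strand of chromosome 7 and also had 2 viewpoints. Uros_Bccip (chr7:140900940-140901768) held the outer start at 140900978 together with the start of the divergent gene Bccip. The viewpoint Uros (chr7:140894138-140894265) held an inner start at 140894183, inside the gene, the kind of position from which the erythroid transcript of this gene is known to start. Cpox lies on the plus strand of chromosome 16, with its viewpoint at chr16:58670021-58670516 and its start at 58670321. Ppox lies on the minus strand of chromosome 1, with its viewpoint at chr1:173210826-173212526 and its start at 173211317. The fragments ranged from 128 bp (Uros) to 1701 bp (Ppox).

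Promoter sequence was taken from RefSeq (GRCm38.p6) as 250 bases before to 50 after a start and was placed in mm9 by exact match. The motifs searched on both strands were GATAA (GATA1 type), CACCC (KLF1 type), CAGNTG (an E-box as bound by TAL1 complexes) and AGGNGGC (core of the CTCF motif). Of 32851 promoters of the same length, 25.4%, 57.5%, 51.4% and 29.4% held a match, in this order. The Cpox promoter held 2 GATAA, 4 CACCC and 2 AGGNGGC matches. The inner Uros promoter held 1 GATAA match, the inner Alad promoter 1 CACCC match, and the Urod promoter 1 CACCC and 2 CAGNTG matches. The outer Alad, outer Uros and Ppox promoters held none of these letters in the window. Their whole viewpoint fragments did hold matches. Ppox held 3 GATAA, 2 CACCC, 6 CAGNTG and 1 AGGNGGC, Uros_Bccip 2 GATAA and 1 CACCC, and Alad_b 1 GATAA. Of all viewpoint fragments (median 746 bp) 40.3%, 83.6%, 71.9% and 63.4% held a match, in the order above. The inner Uros promoter was also the poorest in CpG, with 5 CpG and 48.7% GC, while the inner Alad promoter had 33 CpG and 71.3% GC and the median of all promoters was 7 CpG and 52.7% GC. The promoters with the most matches and the single sites of the inner starts are shown 5′ to 3′ on the strand of the gene, with matches on either strand in capitals (so that TTATC stands for GATAA and GGGTG for CACCC).
Cpox promoter, chr16:58670071-58670320, plus strand: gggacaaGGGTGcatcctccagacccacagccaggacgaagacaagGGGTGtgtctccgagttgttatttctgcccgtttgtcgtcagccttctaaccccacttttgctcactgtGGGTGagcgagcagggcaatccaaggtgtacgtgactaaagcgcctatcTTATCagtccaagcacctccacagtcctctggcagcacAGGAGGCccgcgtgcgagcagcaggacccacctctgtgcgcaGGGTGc
Cpox start, chr16:58670315-58670339, plus strand: gggtgcagtcTTATCtgctctttcc
Uros inner promoter, chr7:140894237-140894261, minus strand: tccctcagccTTATCagtgacagag
Alad inner promoter, chr4:62180976-62181000, minus strand: agccgcttccGGGTGagccgccccg
Urod promoter, chr4:116667019-116667268, minus strand: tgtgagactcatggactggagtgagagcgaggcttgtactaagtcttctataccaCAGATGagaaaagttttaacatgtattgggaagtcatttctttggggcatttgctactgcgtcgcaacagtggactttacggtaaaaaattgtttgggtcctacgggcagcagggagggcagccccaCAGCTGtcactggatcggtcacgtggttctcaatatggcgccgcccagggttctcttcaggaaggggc

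Stretches of fragments in called windows of Alad and Cpox, described further on, are shown on the plus strand of mm9 with the same capitals. The Alad fragment had the most events of its window from Alad_b, with 14, and 33 from Alad_a, where another fragment had 37. The Cpox fragments had the most and next most events of the window 215 kb upstream, with 18 and 17. The Alad fragment held 1 GATAA match, the first Cpox stretch 2 GATAA and 1 CAGNTG matches, and the second 1 GATAA and 3 CACCC matches. The Alad_a fragment with 37 events gave a stretch without GATAA. So did the fragments with the most events in the Cpox windows 210, 175 and 160 kb upstream. The share of all stretches of this length with a match was not taken. A match describes the letters only, since binding was not measured.
Alad contact in Bspry, chr4:62156766-62157031: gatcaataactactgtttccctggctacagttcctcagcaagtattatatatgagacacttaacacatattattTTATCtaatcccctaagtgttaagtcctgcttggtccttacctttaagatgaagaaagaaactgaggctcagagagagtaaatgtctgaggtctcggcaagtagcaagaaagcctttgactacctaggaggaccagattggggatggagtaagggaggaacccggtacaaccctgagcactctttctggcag
Cpox contact in Dcbld2, chr16:58454919-58455218: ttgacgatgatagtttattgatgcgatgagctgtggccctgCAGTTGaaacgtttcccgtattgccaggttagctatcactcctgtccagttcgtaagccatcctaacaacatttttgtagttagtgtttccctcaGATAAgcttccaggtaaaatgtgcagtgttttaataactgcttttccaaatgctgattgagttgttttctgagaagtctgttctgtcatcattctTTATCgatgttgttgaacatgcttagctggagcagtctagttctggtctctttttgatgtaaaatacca
Cpox contact in Dcbld2, chr16:58457128-58457427: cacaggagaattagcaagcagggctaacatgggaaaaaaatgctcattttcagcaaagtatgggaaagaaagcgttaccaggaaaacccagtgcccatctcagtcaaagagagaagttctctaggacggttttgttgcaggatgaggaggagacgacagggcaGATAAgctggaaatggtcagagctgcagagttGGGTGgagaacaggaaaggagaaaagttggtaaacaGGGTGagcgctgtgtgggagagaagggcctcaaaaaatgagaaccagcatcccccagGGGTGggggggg

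The heme viewpoints differed in depth. Ppox and Cpox were covered best, with 11486 and 11356 events summed over the libraries, and Alad_a followed with 9746. Uros_Bccip had 4568 events, Urod 3106, Alad_b 2284 and Uros only 1910, against a median of 6481.5 over 7176 viewpoints with a position. In library a the counts ran from 450 (Uros) to 2544 (Cpox), in library b from 711 (Uros) to 4522 (Ppox), and in library c from 749 (Uros) to 4642 (Ppox). Intervals given below cover counting error only.

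Contacts of Alad and Uros fell off with distance faster than those of almost all other promoters, while those of Urod reached farther. The median distance of events between 2.5 kb and 1 Mb is used here as a summary of reach, with 87.9 kb as the median of 6718 viewpoints tested. From the inner Uros start it was 17.3 kb in library a, 27.9 kb in b and 17.7 kb in c. From Uros_Bccip it was 32.4, 36.4 and 33.0 kb. All libraries of both Uros viewpoints lay far under the median of all viewpoints, with library b the highest in each, and the ranges of the viewpoints did not overlap. The sums put the inner Uros start (19.5 kb) at percentile 0.0893 and Uros_Bccip (34.6 kb) at percentile 2.38 of all viewpoints.

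The Alad viewpoints behaved alike in this respect. Alad_a had medians of 24.1, 24.7 and 24.4 kb in libraries a, b and c, and Alad_b had 23.5, 27.1 and 18.2 kb. The libraries of Alad_a lay within 1 kb of each other and inside the range of Alad_b, so the viewpoints did not differ in reach beyond the spread of the libraries. Their sums lay at percentiles 0.327 and 0.194. Urod had 124, 135 and 140 kb in the libraries and, with 136 kb in the sum, stood at percentile 87.9. Cpox (78.7, 84.7 and 83.5 kb) and Ppox (67.9, 80.2 and 89.2 kb) lay close to the median of all viewpoints, their percentiles being 44.0 and 39.4. The order from the shortest to the longest reach was thus Uros, Alad_b, Alad_a, Uros_Bccip, Ppox, Cpox and Urod, and the libraries overlapped between Uros and both Alad viewpoints and between Ppox and Cpox.

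The slope of the fall of counts with distance, from 10 kb to 1 Mb on log scales, gave the same picture. It was -1.41 for Alad_a, -1.43 for Alad_b, -1.34 for Uros and -1.26 for Uros_Bccip, where the median of all viewpoints was -0.91. Cpox (-0.96), Ppox (-1.0) and Urod (-0.85) were near that median. The steep slopes were thus those of both Alad and both Uros viewpoints.

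Shares of all cis events by distance class showed where the events of each promoter went. Between 100 kb and 1 Mb, Uros had 6.67%, 7.17% and 7.48% of its events in libraries a, b and c, and Uros_Bccip had 7.06%, 8.86% and 8.08%. Each library of both was below the lower quartile of all viewpoints, 15.4%. Alad_a (11.6%, 11.1% and 10.6%) was also below it in each library, and Alad_b had 10.8%, 13.7% and 8.96%, likewise. Urod placed 27.8%, 27.2% and 27.0% of its events there, all above the upper quartile of 23.8%.

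The other events of the short-reaching promoters were not spread in the same way. Under 2.5 kb, Uros (4.61% of the sum, 95% interval 3.71% to 5.65%) and Alad_b (4.60%, 3.78% to 5.54%) were the highest of the heme viewpoints, where the median of all was 1.39%. Between 1 and 10 Mb, Uros_Bccip held 32.2%, 29.2% and 28.8% in the libraries, above the upper quartile of all viewpoints (25.1%), whereas Alad_a held 9.40%, 10.4% and 11.4%. The events of Alad_a beyond 10 Mb made up 40.8%, the highest share of the heme viewpoints. Ppox, on the longest fragment, had the lowest share under 2.5 kb, at 0.383%, and distances were measured from the middle of the fragment.

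Library a held more near and fewer far events than the others. Between 10 and 100 kb it had the highest share in 7 of 7 heme viewpoints, for example 27.9% against 22.5% and 22.7% for Alad_a. Beyond 10 Mb it had the lowest share in 7 of 7, for example 35.9% against 42.7% and 41.9% for Alad_a. It was also the shallowest library, and the part of depth in these differences was not tested. How often library a was highest or lowest over all viewpoints was not counted, so these counts do not set the heme viewpoints apart.

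**Figure D1:**
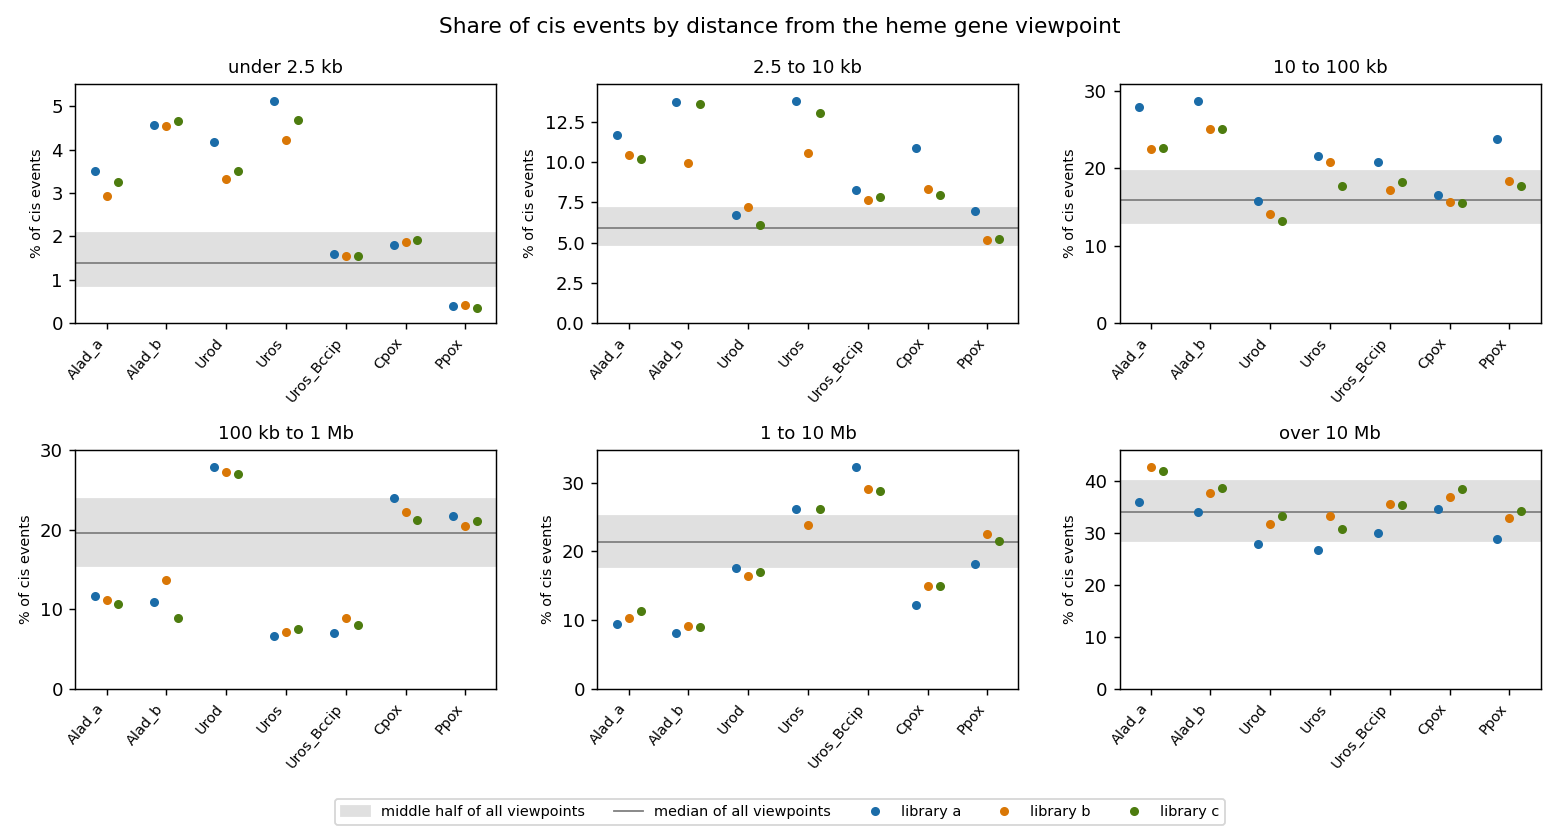
Share of cis events (percent, vertical axis) of the 7 heme gene viewpoints in 6 classes of distance, with 1 point per library, the median of 6718 viewpoints as a line and their interquartile range as a grey band. Uros and Uros_Bccip lie lowest between 100 kb and 1 Mb (7.17% and 8.17% in the sum) and Urod highest (27.3%).

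Contacts were one-sided for Alad and, in the other direction, for Cpox. Of the events of Alad_a between 2.5 kb and 1 Mb, 28.0% in library a, 28.1% in b and 27.4% in c lay upstream, that is on the side opposite to the direction of transcription. Alad_b had 25.8%, 29.7% and 30.8%. Distance alone, over the fragments present on each side, would have given 49.1% for Alad_a and 49.7% for Alad_b. Both viewpoints thus faced their own gene and what lies beyond its 3′ end, below the 5th percentile (32.0%) of 5025 viewpoints of a single gene.

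Cpox showed the opposite orientation. Its upstream share was 71.6% in library a, 71.7% in b and 71.7% in c, with a 95% interval of 70.5% to 72.9% for the sum and 52.4% expected from distance. The libraries lay closer together than the interval is wide, and all were above the 95th percentile of 65.9%. Most of this came from beyond 100 kb, since between 2.5 and 100 kb the share was 57.8% with 54.8% expected. Urod also had more events upstream, with 62.8%, 64.1% and 59.8% up to 1 Mb and 48.7% expected. Ppox had fewer (40.0%, 41.5% and 40.6%, with 52.0% expected), as did Uros_Bccip (33.1%, 38.9% and 37.4%, with 48.1% expected). At the inner Uros start library a (39.2%) lay under libraries b (49.3%) and c (49.1%), and the interval of the sum, 43.0% to 50.3%, included the 49.0% expected.

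**Figure D2:**
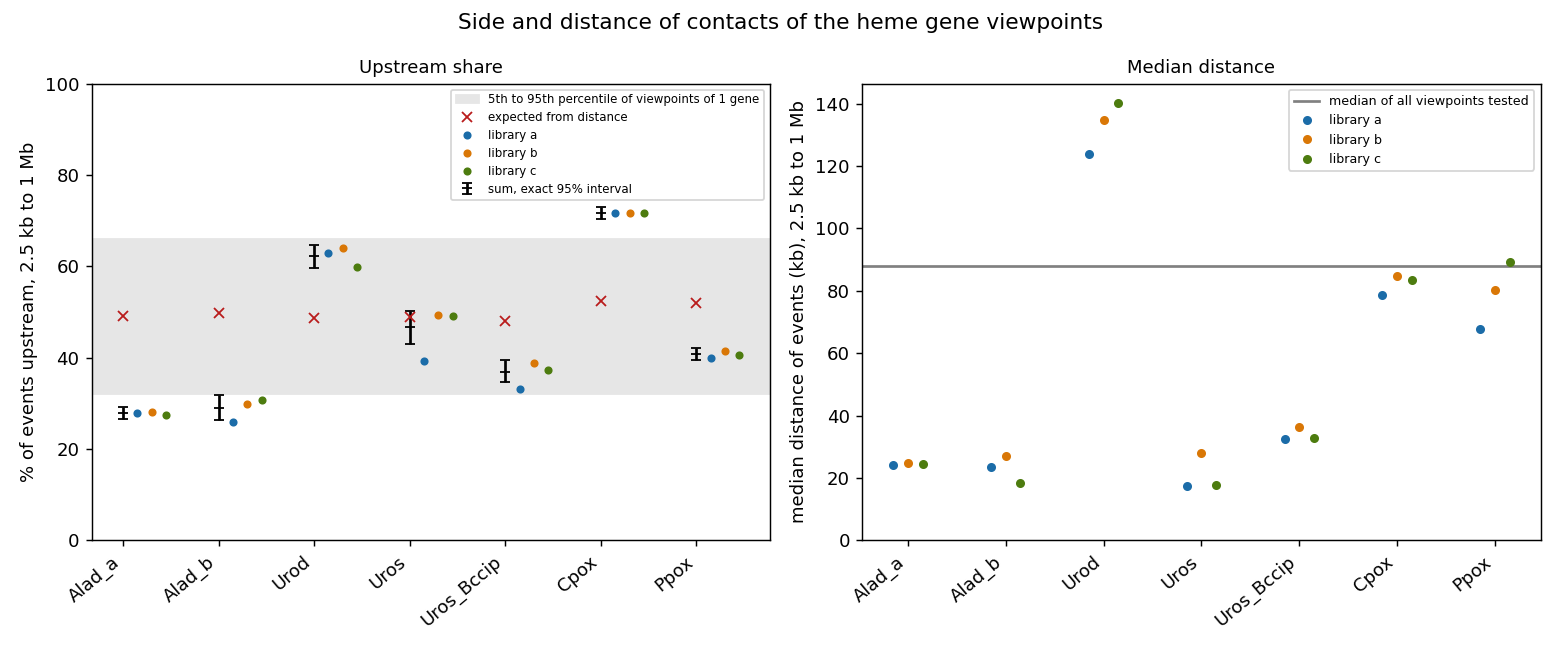
Left, percent of events between 2.5 kb and 1 Mb that lay upstream of each heme gene, by library, with the summed share and its exact 95% interval, the share expected from distance (crosses) and the 5th to 95th percentile of viewpoints of 1 gene (grey band). Right, median distance of those events in kb by library with the median of all viewpoints (87.9 kb): Alad sits below the band on the left and Cpox (71.7%) above it, and the 4 Alad and Uros viewpoints have the shortest medians.

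To compare places at different distances, the events in a region were divided by the number expected from the mean of all viewpoints at the same distances and the events of the viewpoint in range. Ratios above 1 are contacts above that expectation. Alad and Uros contacted their own gene bodies above expectation and Cpox did not. Over the body of Alad beyond 2.5 kb, the ratio from Alad_a was 2.08, 2.20 and 2.18 in the libraries (202, 298 and 278 events), and from Alad_b 2.79, 2.01 and 2.42. Over the body of Uros it was 2.22, 1.83 and 2.10 from the inner start and 1.77, 1.73 and 1.75 from Uros_Bccip. Every library of these 4 viewpoints was above 1.7. The 50 kb downstream as a whole gave 2.15 from Alad_a, 2.23 from Alad_b, 1.69 from Uros and 1.67 from Uros_Bccip in the sum. Whether the gene bodies stood out from the near range of these viewpoints was not tested. The body of Cpox gave 0.84, 0.81 and 0.77, under expectation in each library. The body of Urod held 5 fragments and gave 0.98, and the 2 fragments of the Ppox body gave 1.48, which was 1.03 without the fragment with the most events.

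In bins of 50 kb the profile of Cpox had a broad rise upstream that no other heme promoter reached in the sum of the libraries. Between 150 and 200 kb upstream it had 192, 284 and 275 events, a ratio of 4.32, 4.14 and 4.08. Between 200 and 250 kb upstream it had 110, 197 and 203 events, with ratios of 4.00, 4.64 and 4.86. The same distances downstream gave 6, 13 and 12 events (0.22 in the sum) and 5, 12 and 9 events (0.24). The ratio upstream was thus over 10 times the ratio downstream in every library. Between 250 and 300 kb upstream the ratio was still 2.55, and library a was lowest (1.85).

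The rise lay over St3gal6, which encodes a sialyltransferase, and Dcbld2, which encodes a transmembrane receptor. These were the genes with the highest ratio from Cpox among 14 protein-coding genes within 1 Mb that expected at least 10 events, and they were singled out after their values were seen. Over St3gal6 (chr16:58468238-58524356) the ratio was 4.22, 4.05 and 3.95, a mean of 4.07 ± 0.14 (SD, n = 3). Over Dcbld2 (chr16:58408556-58469840) it was 3.96, 4.59 and 4.91, a mean of 4.49 ± 0.48 (SD, n = 3). In the sum of the libraries the remaining 12 genes were under 2-fold, the next being Cldn25, a claudin gene 57.8 kb downstream, with 1.69. In single libraries Cldn25 reached 2.20 (library b) and Mina 2.12 (library a).

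Other heme promoters had smaller rises. Urod had 34, 45 and 53 events between 150 and 200 kb upstream (2.73, 2.66 and 3.05), which covers Kif2c, a mitotic kinesin (2.05 over the gene). Ppox had 125, 186 and 197 events between 150 and 200 kb downstream (2.92, 2.66 and 2.75), and the gene there with the highest ratio was 1700009P17Rik with 4.38, 4.50 and 3.84. Sdhc, a subunit of succinate dehydrogenase beside it, had 2.01, 1.95 and 2.02. Uros_Bccip had 10, 15 and 8 events between 900 and 950 kb downstream (4.86, 4.33 and 2.37), over Fam53b, whose body gave 2.76, 2.98 and 2.44 in the libraries. Alad_a had 12, 18 and 21 events between 850 and 900 kb upstream (1.76, 1.89 and 2.35), and Alad_b had 4, 9 and 4 there (2.20, 3.73 and 1.73). Each of these bins was above expectation in each library, while the bins between 300 and 500 kb on the same side were under 0.4 in the sum for Alad_a and Uros_Bccip. Within 50 kb downstream of Alad the ratio was 2.15 from Alad_a and 2.23 from Alad_b.

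**Figure D3:**
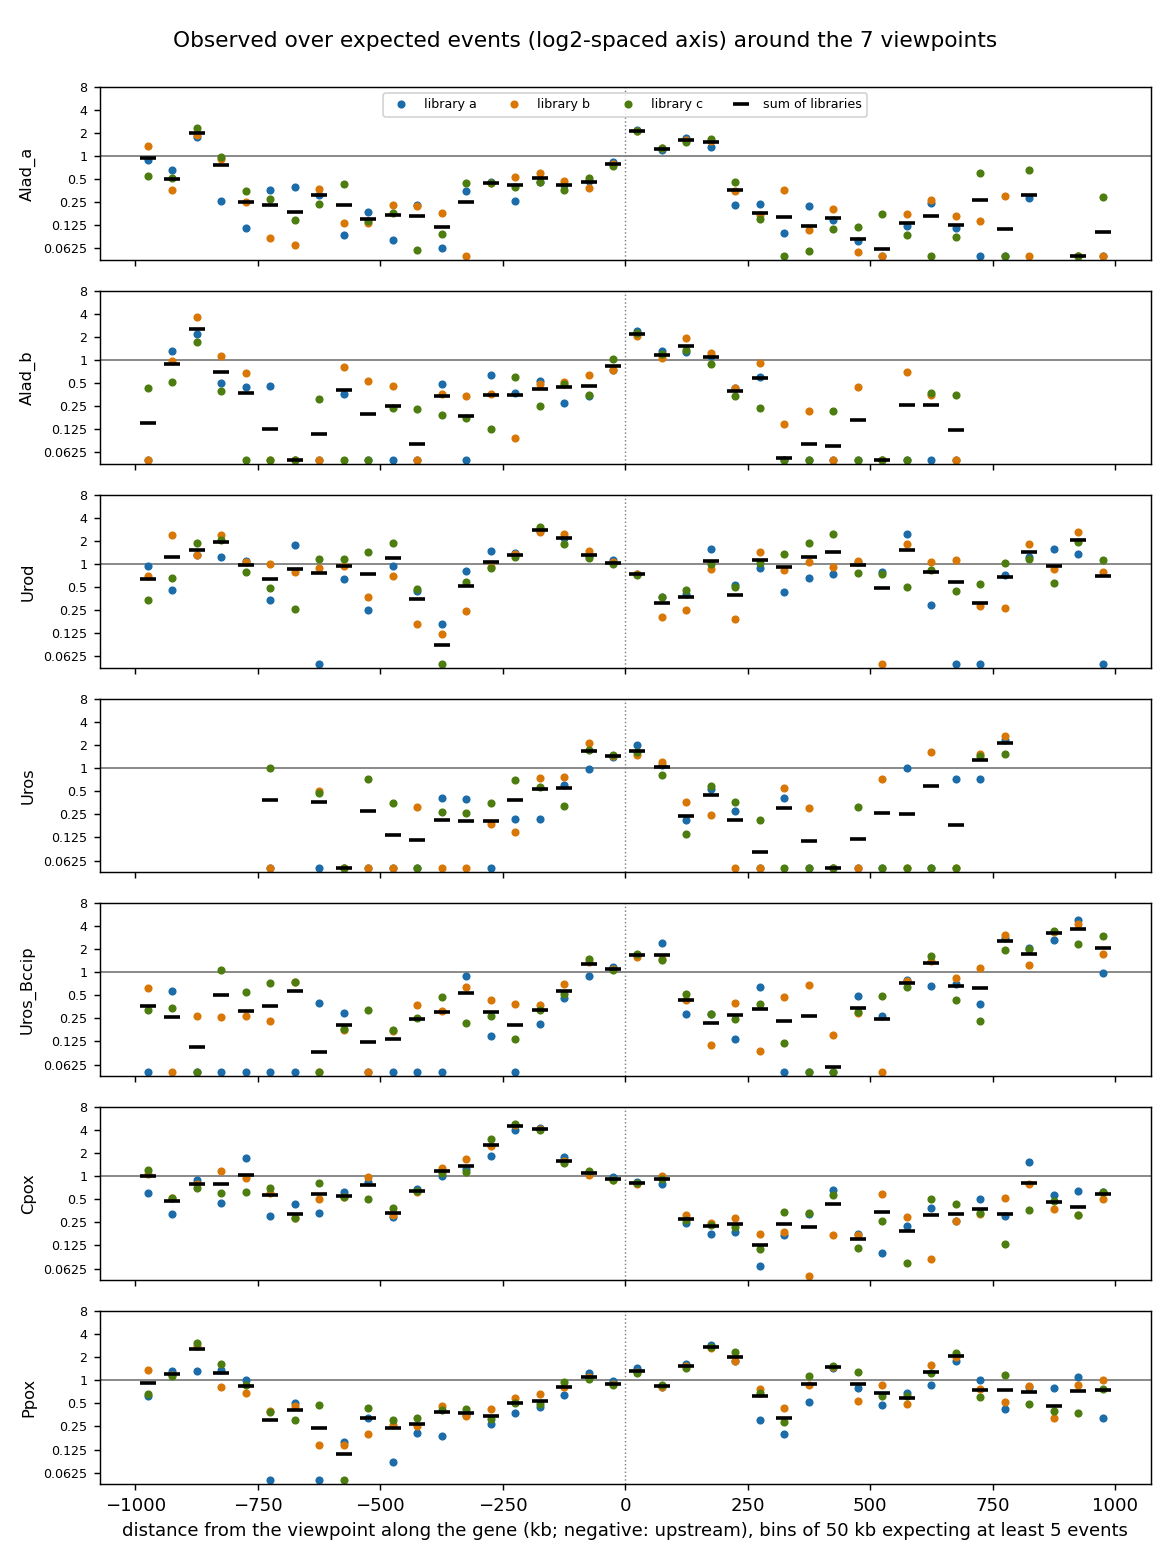
Observed over expected events (log axis) in bins of 50 kb around the 7 heme gene viewpoints, by distance along the gene in kb with negative values upstream; points are libraries, bars the sum, bins expecting at least 5 events are shown, and values under 0.05 are drawn at the lower edge. Cpox peaks between 150 and 250 kb upstream (4.16 and 4.56), Uros_Bccip at 900 to 950 kb downstream (3.71) and Ppox at 150 to 200 kb downstream (2.75). Alad_a is highest within 50 kb downstream (2.15). Alad_b has 2.23 there and 2.60 at 850 to 900 kb upstream.

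Single windows of 5 kb were then tested against expectation with a negative binomial test and Benjamini-Hochberg adjustment over 2655607 windows of all viewpoints. A window was called at an adjusted p under 0.05 with a count above expectation in each library. Over all viewpoints 0.0548% of windows were called, and 13.1% of viewpoints had at least 1. Of 2789 windows of the heme viewpoints 6 were called, and they belonged to Alad_a, Alad_b and Cpox, that is to 3 of 7 viewpoints. Among 4348 viewpoints with totals between the lowest and highest of the heme viewpoints the share with a call was 12.6%. The counts are small, and the calls of Alad are of nearly the same window.

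The called windows of Alad lay 22.5 to 27.5 kb downstream, beyond the 3′ end of Alad and at the end of Bspry, a gene of the opposite strand. From Alad_a the window chr4:62153344-62158343 held 79, 95 and 96 events, where 22.6, 31.5 and 29.6 were expected. Each library was above 3-fold, and the summed ratio was 3.23 (adjusted p = 0.0329 in the negative binomial test). The mean of the ratios was 3.25 ± 0.24 (SD, n = 3). From Alad_b the window chr4:62153803-62158803 held 31, 29 and 23 events with 5.83, 7.75 and 7.41 expected, a ratio of 3.95 (negative binomial test, adjusted p = 0.00821). Neither call held in every alternative. That of Alad_a was lost without library a and without library c, and that of Alad_b without library a (negative binomial test, adjusted p = 0.0682, 0.0540 and 0.0863), and both were lost with all pairs kept in the dispersion (adjusted p = 0.790). There the highest dispersion over the bins of distance was 172, against 0.613 with the highest 0.1% of ratios left out. The fragment at chr4:62156766-62157094, of which a stretch is shown above, had 11, 13 and 9 events from Alad_a and 4, 5 and 5 from Alad_b, 4.89 and 8.92 times expectation.

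The window was the last and highest of a stretch of raised ratios. From Alad_a, windows centred 5, 10, 15, 20 and 25 kb downstream had ratios of 1.94, 2.52, 2.84, 2.82 and 3.23, and the window at 30 kb fell to 1.16. From Alad_b they were 2.24, 2.54, 3.21, 2.63 and 3.95, and 0.91 at 30 kb. Hdhd3, a hydrolase-like gene between Alad and Bspry, had ratios of 2.99, 2.72 and 2.78 from Alad_a over its body, the highest of 18 genes. Prpf4, a spliceosome gene 92.8 kb downstream, had 2.25. Viewpoints of neighbouring genes contacted the window of Alad_a above expectation as well, with 2.84 from Fkbp15_Slc31a1, 2.60 from Prpf4_Cdc26, 1.66 from Wdr31, 1.54 from Pole3_4933430I17Rik and 1.36 from Hdhd3.

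Cpox had 4 called windows, all upstream. In Dcbld2, the window 212.5 to 217.5 kb upstream (chr16:58452769-58457768) held 16, 39 and 30 events with 2.14, 3.29 and 3.24 expected. Every library was over 7-fold, with library b highest, and the sum was 9.80-fold (negative binomial test, adjusted p = 4.59e-05). With all pairs kept in the dispersion this call was lost (negative binomial test, adjusted p = 0.790). The next window toward Cpox, 207.5 to 212.5 kb upstream (chr16:58457769-58462768), held 25, 36 and 42 events, where 3.35, 5.17 and 5.08 were expected. Its ratios of 7.46, 6.97 and 8.27 lay close together and gave 7.58 in the sum (negative binomial test, adjusted p = 0.00147).

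In St3gal6, the window 172.5 to 177.5 kb upstream (chr16:58492769-58497768) held 16, 19 and 18 events at 6.81-fold (negative binomial test, adjusted p = 0.0105). With expectation by distance and fragment length it was 4.87-fold and not called (negative binomial test, adjusted p = 0.112). The fourth window, 157.5 to 162.5 kb upstream, held 27, 35 and 35 events at 5.05-fold (negative binomial test, adjusted p = 0.0407). This last call did not hold without any 1 of the libraries, as described in the closing section. The called windows were the tops of the broad rise. Of the 176 windows of Cpox expecting at least 5 events, 24 were at least 3-fold above expectation, and all 24 were upstream, with centres between 135 and 270 kb.

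The viewpoint of Dcbld2, 262 kb from Cpox with 1248 events in all, saw these windows unequally. It had 13 events in the window centred 215 kb upstream of Cpox, 3.28-fold, and 4 events in the window at 210 kb, 0.77-fold. In the windows at 175 and 160 kb it had 4 and 5 events, 2.33-fold and 1.53-fold. Other viewpoints had few events in the called windows. Mina had 6 at 175 kb (5.58-fold) and 2 at 160 kb (0.85-fold), and Cmss1 had 2, 1, 0 and 5 at 215, 210, 175 and 160 kb (2.21, 0.77, 0 and 3.97-fold). Among single fragments, 1 of 29427 tested for the heme viewpoints was called, against 0.0023% over all viewpoints. It was the fragment chr16:58458210-58459412 in an intron of Dcbld2, with 5, 6 and 10 events from Cpox and 1.24 expected in the sum, 17.0-fold (negative binomial test, adjusted p = 0.0345). It lost its call without any 1 of the libraries (negative binomial test, adjusted p = 0.0969 without a, 0.0542 without b and 0.581 without c). The call was also lost with all pairs kept in the dispersion, with 25 distance bins, and with expectation by distance and fragment length, where the ratio was 10.2 (negative binomial test, adjusted p = 0.840, 0.0503 and 0.0803). The fragments of the Cpox sequences shown had 5, 8 and 5 events (14.5-fold) and 3, 7 and 7 events (13.7-fold).

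**Figure D4:**
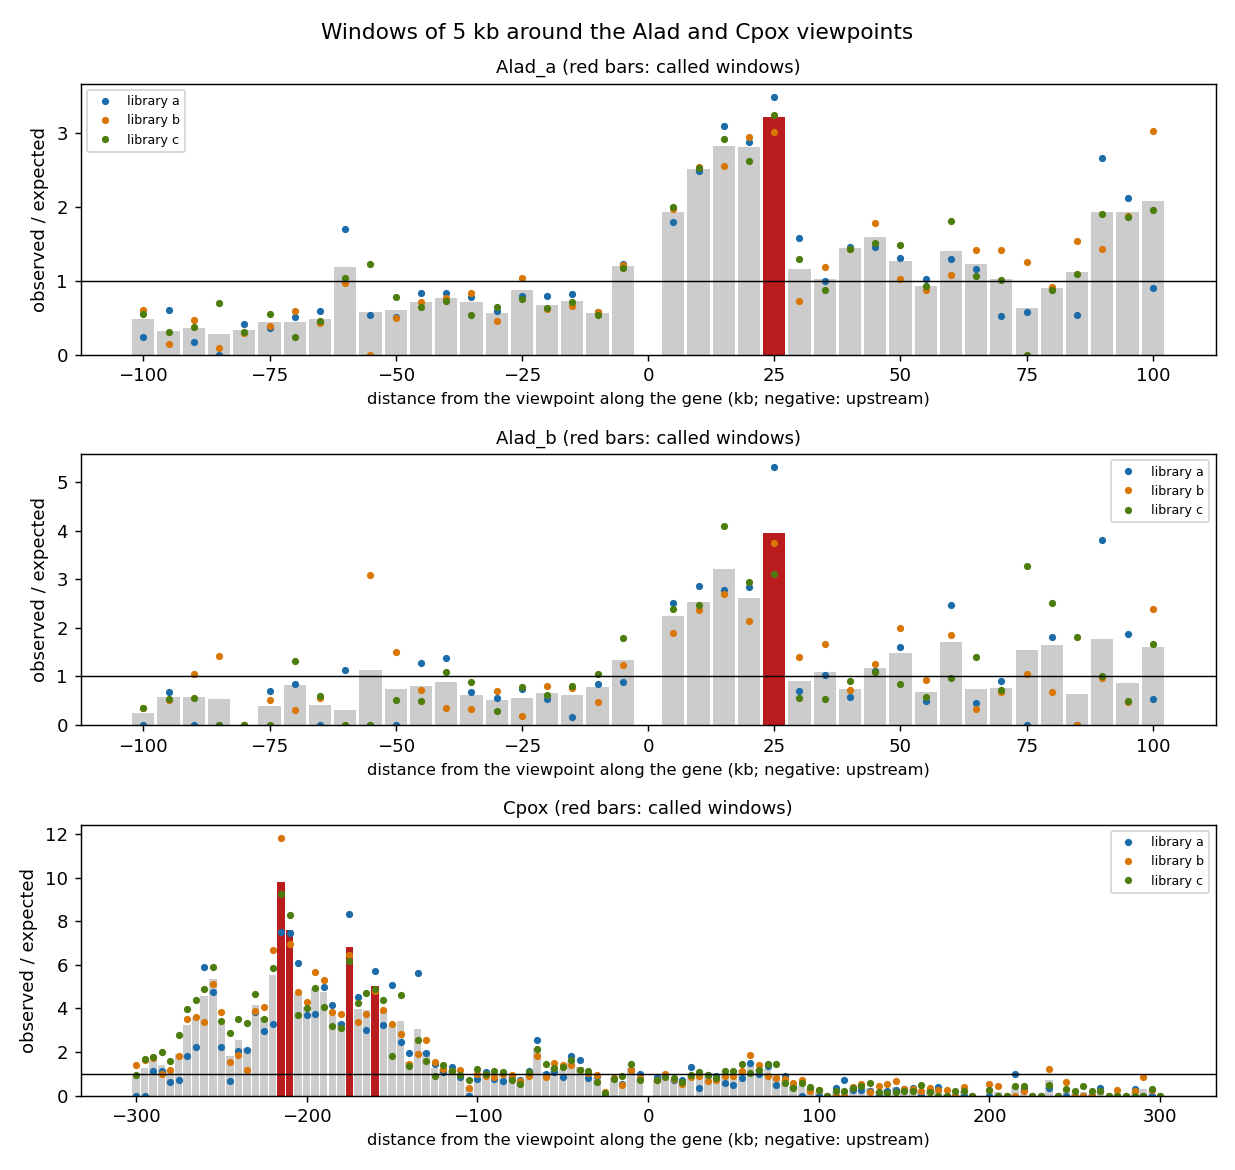
Observed over expected events in windows of 5 kb around Alad_a, Alad_b and Cpox, by distance along the gene in kb with negative values upstream; bars are the sum of the libraries, red bars called windows, and points the libraries. Called windows stand 25 kb downstream of Alad (3.23 and 3.95) and 160 to 215 kb upstream of Cpox (5.05 to 9.80).

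Urod, both Uros viewpoints and Ppox had no called window, and the windows with the lowest p of Ppox and of the Uros viewpoints are given as values. For Ppox it lay 162.5 to 167.5 kb downstream in 1700009P17Rik (chr1:173044176-173049176), with 21, 30 and 27 events at 4.85-fold (negative binomial test, adjusted p = 0.0638). All libraries were over 4-fold there. The window was also at least 2-fold above expectation from 12 of 18 other viewpoints.

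For the inner Uros start the window lay at the 3′ end of Uros itself, 12.5 to 17.5 kb downstream (chr7:140876702-140881701). It held 14, 18 and 17 events at 3.02-fold (negative binomial test, adjusted p = 0.199), and Uros_Bccip saw the same window at 2.49-fold with 63 events. For Uros_Bccip the lowest p was in Fam53b, 902.5 to 907.5 kb downstream, where 2, 4 and 1 events stood against 0.94 expected (negative binomial test, adjusted p = 0.464). No stretch of 30 identical bases was shared between a heme viewpoint and any of the windows named.

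The motif letters in the called windows of Cpox and Alad were compared with those of all windows. The Cpox windows at 215 and 160 kb held 10 GATAA matches each and those at 210 and 175 kb 6 each, where the median of all windows was 7 and 31.0% had 10 or more. Of CAGNTG, with a median of 13, the Cpox windows at 215, 210, 175 and 160 kb held 8, 16, 10 and 11, and of CACCC, with a median of 10, they held 7, 11, 9 and 6. The Alad_a window held 6 GATAA and 19 CAGNTG matches, with medians of 7 and 13, and 14.4% of windows had as many of the latter. It held 8 CACCC matches (73.4% of windows had as many) and 5 AGGNGGC matches, where the median was 2 and 19.4% had as many. The nearly identical called window of Alad_b held 5 GATAA, 18 CAGNTG and 8 CACCC matches. It held only 3 AGGNGGC matches, and 47.4% of windows had as many. The Cpox windows held 3 AGGNGGC matches at 160 kb and 1 in each of the other windows.

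Contacts between promoters were read at the fragments beside other viewpoints, because targeted fragments themselves were never listed as contacts. None of the 69 pairs of a heme viewpoint and a neighbour was called in the negative binomial test, where 0.0439% of all pairs were. At an unadjusted p under 0.05 there were 9 of 69 (13.0%), against 7.90% of all pairs. The heme pairs together had 679 events and a ratio of 1.43, 1.24 and 1.35 in the libraries, and all pairs together 1.44. The lowest p was that of the outer promoter of Uros seen from the inner start, with 8, 13 and 14 events at 3.16-fold (negative binomial test, adjusted p = 0.313). In the reverse view Uros_Bccip had 6, 9 and 12 events beside Uros (1.48-fold). Cpox saw the flanks of Dcbld2 with 8, 7 and 10 events at 5.69-fold (negative binomial test, adjusted p = 0.564). In the reverse view Dcbld2, with 1248 events in all, had 0, 2 and 0 events beside Cpox. That was 3.98-fold in the sum with 0.50 expected, and above expectation in 1 of 3 libraries.

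Uros_Bccip and Edrf1, a gene named for its part in erythroid differentiation 71.8 kb away, saw each other alike. Uros_Bccip had 5, 4 and 6 events beside Edrf1 (3.77-fold), and Edrf1 had 5, 6 and 6 beside Uros_Bccip (3.70-fold). Alad_a saw the flanks of Hdhd3 with 24, 27 and 23 events (2.34-fold) and Alad_b with 5, 8 and 12 (3.11-fold). In the reverse view Hdhd3 had 2 events beside Alad_a (0.57-fold) and 9 beside Alad_b (1.41-fold). Urod saw Plk3, a kinase gene 140 kb upstream, with 1, 4 and 3 events (4.20-fold), and Plk3 had 1 event beside Urod (1.45-fold). Ppox, with 18 neighbours in range, had no pair at an unadjusted p under 0.05, and Dusp12 had its lowest adjusted p (0.565, negative binomial test). None of these passed the test.

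The likeness of whole profiles was measured as a correlation of log ratios over 10 kb windows. The windows share the libraries and the expectation and are no replicates. Ppox was most like Ufc1 (r = 0.73, 200 windows) and Klhdc9 (r = 0.70, 193 windows). The Uros viewpoints were most like each other (r = 0.64, 200 windows). Alad_a was most like Prpf4_Cdc26 (r = 0.67, 189 windows) and Pole3_4933430I17Rik (r = 0.66, 201 windows). Of the viewpoints within 500 kb it was least like Alad_b (r = 0.57). Alad_b, the shallower viewpoint, was most like Pole3_4933430I17Rik (r = 0.59) and Alad_a. Urod was most like Ipp (r = 0.57, 153 windows) and Mutyh_Toe1 (r = 0.55). Cpox had Dcbld2 as its only neighbour within 500 kb, and their profiles were not alike (r = 0.20, 174 windows).

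Alad and Urod are the only heme enzyme genes of the set on the same chromosome, 54.5 Mb apart. Alad_a had 11, 39 and 31 events within 500 kb of Urod, 81 in all. The 39 other windows of the same length at like distances had a median of 23, with a 5th to 95th percentile of 3.8 to 71, and 1 of them had as many. From Urod, 0, 6 and 7 events fell within 500 kb of Alad against a median of 2 in 23 other windows, of which 1 had as many. Library a held none of them. Alad_b had 10 events against a median of 3, and 6 of its 39 other windows had as many, so the shallow viewpoint did not stand apart. No test was made of these values.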

How the data were processed

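The 3 libraries of 1 group were made by nuclear-titrated (NuTi) Capture-C after DpnII digestion. The authors aligned the reads, removed PCR duplicates, counted unique ligations (reporters) and scaled each viewpoint of each library to 100000 reporters in cis with CaptureCompare, which is the deposited signal, in mm9. Trim Galore and Bowtie are named in the submitters' processing notes, and their versions are not given in the sources used here. Targeted fragments were listed in 0 contacts.

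Values were worked back to events, taking the smallest value of each viewpoint and library as 1 event, and 100% came out whole within 0.01 in each library. A signal had been planned as the unit, and the count tests were run on these events. Viewpoints with at least 1000 events were tested (6718), from 2.5 kb to 1 Mb. The expected count multiplied the average of the bin of distance (50 in all) by the events that the viewpoint had within range. An upper-tail negative binomial test was used, with the dispersion of each bin taken by moments after the highest 0.1% of ratios were left out. Adjustment was by Benjamini-Hochberg over all features of all viewpoints. Peaky, the program of the authors, was not run. Shares have exact binomial (Clopper-Pearson) 95% intervals. Slopes are least-squares fits over 20 bins. Correlations used log2 of observed and expected counts with a pseudocount of 1. Genes with a ratio over their body were protein-coding, under 500 kb long, and expected at least 10 events.

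Named one by one were all members, up to 3 called windows each with the highest ratios (otherwise the window with the lowest p), by the same rule the flanks of neighbours, up to 2 most alike viewpoints, and listed heme genes with a called window. The fourth Cpox window, contacted genes, single fragments and neighbouring viewpoints named beside these were chosen after their values were seen. The members and lists were chosen with earlier results of these data known. Some items that the rule names are not reported here. The calling was tested on simulated counts drawn from the same negative binomial model with a single dispersion. Extreme ratios among unchanged windows were not simulated, so that test cannot show how calls depend on them. Python 3.11.15, numpy 2.4.6, pandas 2.3.3, scipy 1.17.1 and matplotlib 3.10.9 were used.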

Additional observations from a re-analysis of the deposited data

How the results depend on the processing

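No paired analysis was possible because there was 1 group and the columns carried no replicate numbers. Called windows of the heme viewpoints (6) became 2 with all pairs kept in the dispersion, 10 with 2 kb windows, 2 with 10 kb windows, and 4 to 5 with 1 library left out. With all pairs kept, the windows called over all viewpoints fell from 1455 to 391 and the flanks rose from 40 to 912. The highest dispersion of a distance bin rose from 0.613 to 172 for windows and from 3.45 to 4022.7 for flanks. Called fragments (1) became 0 with all pairs kept, 3 with the highest 1% of ratios left out, 3 with equal weight per library, 5 with expectation by distance and fragment length, and 0 to 1 with 1 library left out. The Cpox fragment was not among the 5 (10.2-fold, adjusted p = 0.0803 in the negative binomial test), and the 1 fragment called with 25 distance bins, or without library a, was another. Contacts at flanks (0) became 1 with all pairs kept, Uros with Uros_Bccip (adjusted p = 0.0408 in the negative binomial test, against 0.313 before). It was 1 of the 912 flanks called in that setting. The cause was not tested.

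Of the called windows, that of Cpox at 210 kb kept its call in 9 of 9 alternatives, those at 215 and 175 kb in 8, Alad_b in 7, Alad_a in 6 and Cpox at 160 kb in 4. With all pairs kept in the dispersion the windows of Alad_a, Alad_b and Cpox at 215 kb had an adjusted p of 0.790 each, and Cpox at 160 kb had 0.621. In the same setting Cpox at 210 and 175 kb had 0.00862 and 0.0251 (negative binomial test). The adjusted p of Alad_a was 0.0682 without library a and 0.0540 without c, and that of Alad_b was 0.0863 without a. For Cpox at 160 kb it was 0.0783, 0.0769 and 0.0806 without a, b and c, and Cpox at 175 kb had 0.112 with expectation by distance and fragment length. The Ppox window was called with the highest 1% of ratios left out (negative binomial test, adjusted p = 0.0344).

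The median share at 10 to 100 kb (19.2%) was 45.1% of events within 1 Mb and 18.0% to 20.2% with 1 library left out, and that at 100 kb to 1 Mb (11.2%) was 22.7% and 11.01% to 12.51%. The median slope (-1.26) ranged from -1.31 to -1.23 with 1 library left out. The spread of upstream shares between heme viewpoints (39.2 percentage points at 2.5 to 100 kb) was 31.5 at 2.5 to 20 kb, 43.9 up to 1 Mb, and 41.2 without the fragment with the most events. The median ratio over the own gene body (1.74) was 1.67 without that fragment, and the ratio of Alad_a events near Urod to the median (3.52 within 500 kb) was 4.56 within 250 kb, where 5 of 79 other windows had as many and the 41 events were below their 95th percentile of 43.1. Within 1 Mb Alad_a had 151 events against a median of 40, and 0 of 19 other windows had as many. From Urod, 0 of 48 other windows had as many within 250 kb and 0 of 11 within 1 Mb, with 0 and 1 events in library a. From Alad_b, 23 of 79 and 2 of 19 had as many. With 1 library left out, the ratio of the lowest-p fragment of Uros, 3 events in library b alone, ran from 0 (without b) to 104.8, and that of Ppox and Dusp12 from 0.944 (without c) to 2.95. Depth differed between heme viewpoints, from 1910 events (Uros) to 11486 (Ppox), and its part in the number of calls was not tested.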

Other observations

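The other genes of heme synthesis and transport were read from a list of 32, of which 26 had a tested viewpoint. Of these, 8 had at least 1 called window of 5 kb, 20 windows in all, where 13.1% of all viewpoints had 1 or more. The 26 were deeper, with a median of 8132.5 events against 6481.5 over all viewpoints with a position. The part of depth in this share was not tested. Of the mitochondrial solute carriers on the list, Slc25a28 had none. Its lowest adjusted p was 0.0488 (negative binomial test), but a call also needed a count above expectation in each library. Slc25a39 had 8 called windows, the highest at 5.64-fold 100 kb away, Slc25a38, the glycine carrier of the first step, had 3 (7.10-fold at 215 kb), and Slc25a37, the iron importer mitoferrin, had 2 (3.83-fold at 40 kb). Abcb6, a porphyrin transporter, had 1 (4.45-fold at 70 kb), and Iscu, the scaffold of iron-sulfur clusters, had 1 (6.05-fold at 210 kb). Eif2ak1, the heme-regulated kinase of translation, had 2 (4.85-fold at 30 kb), Nfe2l2 had 2 (4.70-fold at 50 kb), and Snx3 had 1 (16.7-fold at 985 kb, adjusted p = 0.0487 in the negative binomial test).

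Alas1, the housekeeping form of the first enzyme, had no called window and a median distance of 75.8 kb. The median of the 26 viewpoints was 63.4 kb, and Glrx5_Snhg10 (33.2 kb) and Slc25a37 (33.9 kb) were below the 34.6 kb of Uros_Bccip. The globin viewpoints, for comparison, had 3 (Hba-1), 5 (Hba-2), 7 (Hbb-b1) and 5 (Hbb-b2) called windows and medians of 29.8, 37.9, 52.3 and 41.6 kb.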
